A study of Homo sapiens with 24 samples.

Results

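HT29 cells, an established line of human colon adenocarcinoma, were treated for 6 h with the culture supernatant of a dairy propionibacterium, and their RNA was compared with that of untreated cells. The supernatant (SN) came from Propionibacterium freudenreichii grown in DMEM and was applied at a dilution of 1/2, and untreated cells (NT) received no agent. The comparison rests on 8 of the 24 arrays of the study, the 4 labelled SN and the 4 labelled NT, each hybridised with Cy3-labelled RNA of 1 culture. The groups serve here beside 4 arrays of cells given C3/C2 (30 mM propionate with 15 mM acetate, set by the study to the amounts in the diluted SN) and 4 arrays of cells given TRAIL, the death receptor ligand, with an antibody against its Flag tag, each for 6 h. The study describes independent experiments run in duplicate, and the labels do not say which replicate numbers shared an experiment, so the p values partly measure technical spread. The model is a single cell line grown with fetal calf serum, and no array holds cells given unfermented bacterial medium, so SN was compared with no medium of its own.

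Propionibacteria ferment lactate to propionate and acetate, short-chain fatty acids that enter colonocytes through monocarboxylate transporters, feed their mitochondria and, at high concentration, inhibit histone deacetylases. Genes that commonly rise on deacetylase inhibition include the cell cycle inhibitor CDKN1A and the linker histone H1F0. A supernatant also holds other bacterial products and lacks the nutrients that the bacteria used, and epithelial cells read such cues through the aryl hydrocarbon receptor (AhR), the amino acid response run by ATF4, receptors of the epidermal growth factor (EGF) family and NF-kB.

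The 4 SN arrays lay on the same slide as the 4 TRAIL arrays, while NT replicate 1 shared a different slide with C3/C2 replicate 1, and the other NT and C3/C2 arrays shared one more. Slide and treatment therefore cannot be told apart in SN against NT, nor in any difference of SN from C3/C2 given below. SN was also set against TRAIL within the shared slide, a comparison that carries the effect of TRAIL itself. The share of probes with signal clearly over background was 53.2% to 55.4% on the NT and SN arrays, and the 75th percentile of intensity was 745 to 1010 in NT and 724 to 798 in SN. The 12 markers of colonic epithelium were measured on every NT and SN array, with a summed level of 1030 to 1150 in NT and 1040 to 1170 in SN (in multiples of the 75th percentile of each array), and 3 of them, CDH1, CDX2 and CDH17, were called higher. The call of CDH17 was lost without NT replicate 3 or NT replicate 4. With intensities scaled by array medians or corrected by normexp, CDH1 and CDH17 were under 2-fold. Of the 6 leukocyte markers, 5 were tested and 2 were higher with SN (CD14 among them), with a summed level of 1.89 to 2.5 in NT and 4 to 5.35 in SN. The same sum was 0.144 to 0.207 and 0.859 to 1.06 for the fibroblast markers, of which 2 of 6 were tested (COL1A1 higher), and 0.203 to 0.251 and 0.22 to 0.322 for the endothelial markers, of which 3 of 4 were tested (PECAM1 higher). In such bulk RNA, fewer cells that express a gene and less RNA of it per cell cannot be told apart.

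Levels below are on a log2 scale on which 0 is the 75th percentile of intensity on that array and 1 unit is 2-fold, and levels of different genes are not compared. Differences and standard errors (SE) are from 1 limma fit over all arrays, with n = 4 arrays per group, and calls needed a difference of at least 2-fold with an adjusted p (Benjamini-Hochberg, over 20703 genes) under 0.05. With SN, the level of 2949 genes (14.2% of those tested) was higher than in NT and that of 2018 (9.75%) lower. Counts of gene lists below are to be read against these shares. At 4-fold these were 1009 and 410 genes, and at 16-fold 128 and 13. The NT and SN arrays did not overlap for 2891 of the genes called higher and 1965 of those called lower. A difference of 2-fold beside a median SE of 0.108 largely implies this, so it adds no support to the calls. On the shared slide, 2712 genes (13.1%) were higher with SN than with TRAIL and 1657 (8%) lower, and these included 81.2% of the genes higher than NT and 63.3% of those lower than NT. Against C3/C2, which lay on other slides than SN, 265 genes (1.28%) were higher with SN and 914 (4.41%) lower. The split between directions moved with the scaling: against NT, 2536 genes were higher and 2515 lower by array medians, and 1390 and 1552 with normexp background correction. By array medians, 495 and 632 genes were higher and lower than with C3/C2, and 2112 and 2582 than with TRAIL, and by spike-in controls 636 and 554, and 4134 and 856. The median difference of all genes from NT was −0.0163 as scaled here, −0.145 by array medians, 0.053 by spike-in controls and −0.109 with normexp background correction, and differences near 1 should be read against that shift. From C3/C2 the medians were −0.0472, 0.124, 0.202 and −0.0904 in the same order. Whether a difference from C3/C2 near 1 was called thus depended on the scaling too.

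The genes that rose most belonged to no single process. CYP1A1, a cytochrome P450 that the AhR induces, rose by 7.83 on the log2 scale (SE 0.25), and DACT3, an antagonist of Wnt signalling, by 7.66 (SE 0.44). CEND1, which takes part in the cell cycle exit of neuronal precursors, read −3.20, −3.61, −3.51 and −3.49 on the NT arrays and 3.05, 3.02, 2.97 and 2.89 on the SN arrays. The groups were far apart for CEND1, with a spread of less than 0.5 within each. KREMEN2, a receptor for the Wnt inhibitors of the Dickkopf family, rose 57.9-fold, FSCN1, the actin-bundling protein fascin, 53.8-fold, and the transcription factor SNAI1, a repressor of E-cadherin, 26.4-fold. None of CEND1, KREMEN2, FSCN1 and SNAI1 was called against C3/C2, from which SN lay −0.67, −0.92, 0.54 and 0.99. Several further genes were below background throughout NT, so that their fold is a lower bound, set against the dimmest probes that were measured on the same arrays. These were ANGPTL4 (at least 191-fold), CREB3L3 (at least 87.7-fold), the signalling adaptor SH2D3C (at least 52.3-fold), TMEM121 (at least 37.7-fold) and the collagen gene COL1A1 (at least 36.1-fold).

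**Figure D1:**
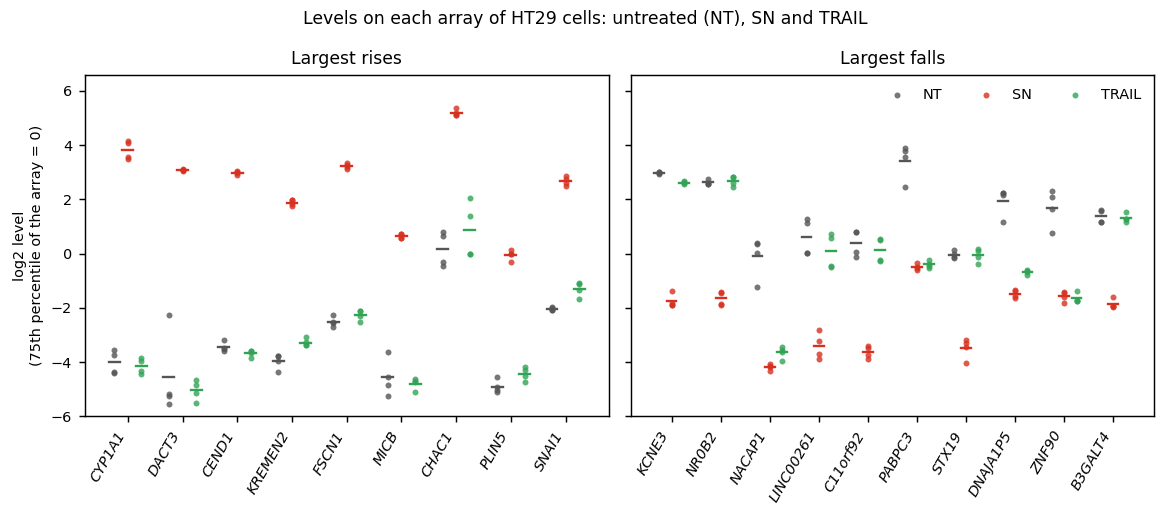
The log2 level on each array (points, 4 per group, with the mean as a bar; 0 is the 75th percentile of the array) is plotted for the named genes with the largest rises (left, 9 genes) and falls (right, 10 genes) among those measured in both groups, in untreated cells (NT), SN and TRAIL. The TRAIL arrays, which shared the slide of SN, sit near NT for CYP1A1 and KCNE3 but near SN for NACAP1, PABPC3, DNAJA1P5 and ZNF90.

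The largest falls divided by what the TRAIL arrays of the same slide showed. KCNE3, the subunit that opens the KCNQ1 potassium channel of colonic crypts, read 2.98, 3.00, 3.00 and 2.93 in NT and −1.91, −1.91, −1.38 and −1.82 with SN, a difference of −4.74 (SE 0.12), and lay −4.37 from TRAIL. NR0B2, a nuclear receptor without a DNA-binding domain that represses bile acid and lipid genes, was at −4.29 from NT and −4.33 from TRAIL. LINC00261, a long non-coding RNA of endoderm, changed by −4.01, C11orf92 by −4.01, STX19, a syntaxin of epithelia, by −3.45 and B3GALT4, a galactosyltransferase of glycolipids, by −3.23. These 6 genes were called lower than with TRAIL too. NACAP1, PABPC3, DNAJA1P5 and ZNF90 changed by −4.07, −3.92, −3.43 and −3.27 from NT, but TRAIL differed from NT by −3.54, −3.82, −2.63 and −3.35, and SN from TRAIL by −0.53, −0.097, −0.80 and 0.073. NACAP1, PABPC3 and DNAJA1P5 are pseudogene or retrogene copies of more widely expressed genes, whose transcripts share sequence with them. PABPC3 showed the pattern on every array, at 2.44, 3.56, 3.90 and 3.80 in NT, −0.53, −0.48, −0.62 and −0.33 with SN and −0.38, −0.52, −0.46 and −0.22 with TRAIL, while the C3/C2 arrays, on the slides of NT, read 2.68, 3.66, 4.07 and 4.01. In all, 452 genes (2.18%) were lower with TRAIL than in NT, and 327 of the 2018 genes lower with SN were among them, 12 of which were also lower with SN than with TRAIL. SN and TRAIL shared both the slide and the NT arrays in these counts, so slide and treatment cannot be told apart for these genes. Below background with SN, and so given as bounds, were HNRNPCL1 (at least 13.7-fold lower), OR51E1, an olfactory receptor that short-chain fatty acids activate (at least 12.8-fold), SETP20 (at least 8.16-fold), C9orf123 (at least 7.42-fold) and FKSG2 (at least 7.27-fold). TRAIL lay −0.80 from NT for OR51E1 and −0.13 for C9orf123, but −2.68 and −2.18 for SETP20 and FKSG2, and HNRNPCL1 was below background with TRAIL as well.

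The AhR is a transcription factor that binds planar aromatic compounds from diet, smoke and microbes and then pairs with ARNT to induce enzymes of the CYP1 family, its repressor AHRR and TIPARP. With SN, 6 of the 13 tested genes of this pathway (14 listed) rose and 1 fell, with a median difference of 0.404 against −0.0163 over all genes tested. CYP1A1 (probe at chr15:75012562-75012621, hg19) read −3.54, −3.72, −4.40 and −4.38 on NT arrays 1 to 4 and 3.47, 3.57, 4.07 and 4.16 on SN arrays 1 to 4, 227-fold higher (adjusted p = 1.33e-16). The C3/C2 arrays read −1.32, −1.56, −0.61 and −0.43 and the TRAIL arrays −4.45, −3.98, −3.87 and −4.34. CYP1A1 thus stood in 3 separate ranges, with C3/C2 between NT and SN and TRAIL overlapping NT. SN exceeded C3/C2 by 4.80 (SE 0.25, 95% interval 4.28 to 5.31). The base letters of its promoter are given because it holds the core motif of AhR binding, GCGTG, in capitals (RefSeq, GRCh38.p14, chr15:74725529-74725778, minus strand, the 250 bases before the annotated start, 5′ to 3′):
CYP1A1: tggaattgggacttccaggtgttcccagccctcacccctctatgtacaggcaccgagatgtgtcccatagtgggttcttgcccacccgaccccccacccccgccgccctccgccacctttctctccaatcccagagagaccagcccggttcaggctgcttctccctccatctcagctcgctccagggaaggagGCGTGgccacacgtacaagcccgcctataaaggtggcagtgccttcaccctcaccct
The first base of the motif is at −57 from the annotated start, on the strand of the gene. On either strand it occurs in 32.2% of 35116 RefSeq promoters of this length and in 5 of the 10 listed genes that have a promoter entry, among them AHRR, TIPARP, UGT1A6 and PTGES3.

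CYP1B1, the oestrogen-hydroxylating member of the family, read 2.32, 2.37, 1.80 and 1.87 in NT and 3.64, 3.71, 4.15 and 4.21 with SN, a rise of 1.84 (SE 0.14). C3/C2 lay −0.91 from NT on the same gene, so that SN exceeded C3/C2 by 2.75 (SE 0.14, adjusted p = 2.01e-11). CYP1A2, the caffeine-metabolising member, rose by 1.24 (SE 0.23), and its difference from C3/C2, 0.88 (95% interval 0.39 to 1.36), was under 2-fold. AHRR, the repressor that the receptor induces against itself, rose by 2.24 with SN beside 1.76 with C3/C2. TIPARP, an ADP-ribosyltransferase that also limits the receptor, rose by 2.21 and exceeded C3/C2 by 1.26 (SE 0.081). AHR itself rose by 1.16 (SE 0.067), and its difference from C3/C2 was −0.30 (95% interval −0.44 to −0.16). Its partner ARNT and the conjugating enzyme UGT1A6 did not reach 2-fold (−0.28 and 0.40), nor did NQO1, a quinone reductase shared with the NRF2 pathway (−0.80). The gene that fell was PTGES3, the cochaperone p23 of the receptor, at −1.61, where TRAIL on the same slide lay −1.32 from NT.

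**Figure D2:**
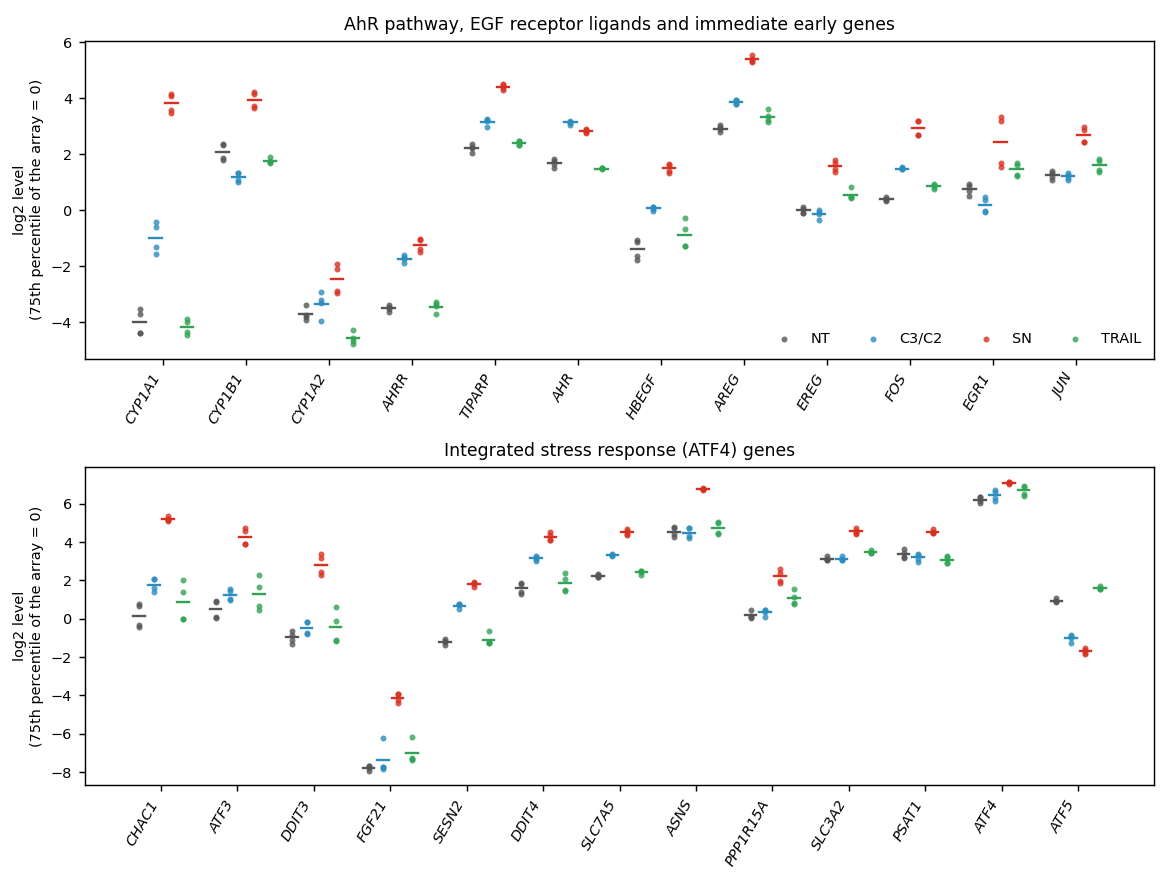
The log2 level on each array (points, 4 per group, with the mean as a bar; 0 is the 75th percentile of the array) is plotted in NT, C3/C2, SN and TRAIL for genes of the AhR pathway, EGF receptor ligands and immediate early genes (top) and for ATF4 genes (bottom). For CYP1A1 the C3/C2 arrays lie between NT and SN, while for ASNS, DDIT3 and FGF21 they lie near NT and TRAIL.

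The integrated stress response couples amino acid shortage, endoplasmic reticulum stress and other insults to the translation of ATF4, which with CEBP partners induces amino acid transporters and synthetases, the CHOP gene DDIT3 and ATF3. Of the lists examined here, this one had the largest share of members that rose: 14 of 23 rose (25 listed), 1 fell and 8 were not called, with a median difference of 1.44. Of the 14, 13 were also higher than with TRAIL on the shared slide, as were 81.2% of all genes higher than NT. Against C3/C2, 13 of the 23 were higher with SN, where 1.28% of all genes were, and none was lower. The median difference of the 23 genes from NT was 0.218 with C3/C2 and 0.278 with TRAIL. CHAC1, which degrades glutathione (probe at chr15:41248631-41248690, hg19), read −0.32, −0.45, 0.64 and 0.78 in NT and 5.20, 5.11, 5.36 and 5.12 with SN, 32.8-fold higher (adjusted p = 4.71e-11). Its NT arrays fell into a lower pair, 1 and 2, and a higher pair, 3 and 4, while the 4 SN arrays were close together and far above both. DDIT3 read −1.10, −1.31, −0.84 and −0.63 in NT and 2.42, 2.27, 3.38 and 3.16 with SN, a rise of 3.78 (SE 0.31), and exceeded C3/C2 by 3.28 (SE 0.31). ATF3, a stress-induced repressor of the same family, rose by 3.78 (SE 0.31), from 0.055 to 0.90 in NT to 3.87 to 4.75 with SN. Of its 4 probes tested, 3 were higher and the remaining probe differed by 0.32. FGF21, the fasting and stress hormone, was below background on every NT array (−7.93 to −7.67) and read −4.39 to −3.91 with SN, at least 3.03-fold higher.

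The 250 bases before the annotated starts of 4 of these genes are given because each holds the composite ATF4 and CEBP motif TGATGNAA, in capitals (RefSeq, GRCh38.p14, 5′ to 3′ on the strand of the gene). CHAC1 is at chr15:40953221-40953470 (plus strand), ATF3 at chr1:212565157-212565406 (plus), FGF21 at chr19:48755274-48755523 (plus) and ASNS at chr7:97872409-97872658 (minus).
CHAC1: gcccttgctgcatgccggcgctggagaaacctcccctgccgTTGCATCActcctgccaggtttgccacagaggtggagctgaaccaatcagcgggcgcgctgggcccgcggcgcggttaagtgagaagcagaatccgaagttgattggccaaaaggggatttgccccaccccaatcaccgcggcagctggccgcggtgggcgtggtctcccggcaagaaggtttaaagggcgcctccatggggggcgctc
ATF3: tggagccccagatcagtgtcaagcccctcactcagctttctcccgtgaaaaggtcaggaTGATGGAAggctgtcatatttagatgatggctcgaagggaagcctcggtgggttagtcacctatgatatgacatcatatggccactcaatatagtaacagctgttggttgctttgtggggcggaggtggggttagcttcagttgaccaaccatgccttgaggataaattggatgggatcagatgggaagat
FGF21: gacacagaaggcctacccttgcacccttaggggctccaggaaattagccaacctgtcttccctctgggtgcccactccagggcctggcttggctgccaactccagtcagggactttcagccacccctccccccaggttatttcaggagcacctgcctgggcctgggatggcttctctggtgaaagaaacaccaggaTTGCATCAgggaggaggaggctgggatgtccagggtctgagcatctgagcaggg
ASNS: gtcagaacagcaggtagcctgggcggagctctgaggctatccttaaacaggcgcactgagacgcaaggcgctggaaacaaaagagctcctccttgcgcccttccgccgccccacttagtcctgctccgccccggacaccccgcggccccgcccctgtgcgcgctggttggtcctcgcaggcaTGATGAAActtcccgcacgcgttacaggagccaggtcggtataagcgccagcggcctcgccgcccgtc
Its leftmost printed base is at −209 from the start in CHAC1 and −54 in FGF21, where the capitals hold the motif of the opposite strand, and at −191 in ATF3 and −68 in ASNS, on the strand of the gene. On either strand it occurs in 3.14% of 35116 promoters and in 5 of the 20 listed genes that have an entry, CEBPG being the fifth. A match is a description of these letters and was not tested as a binding site.

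ASNS, which makes asparagine from aspartate and glutamine, read 4.40, 4.27, 4.79 and 4.73 in NT, 4.32, 4.19, 4.74 and 4.73 with C3/C2 and 6.72, 6.76, 6.83 and 6.74 with SN. Its NT and C3/C2 arrays overlapped, and SN exceeded C3/C2 by 2.27 (SE 0.16, adjusted p = 9.66e-10). SLC7A5 and SLC3A2, the chains of the leucine transporter, rose by 2.27 (SE 0.081) and 1.44 (SE 0.098), beside 1.08 and −0.0065 with C3/C2. PSAT1 and PHGDH, of serine synthesis, rose by 1.16 and 1.08, while a second probe of PSAT1 at 0.96 was under 2-fold, and C3/C2 lay −0.17 and 0.40 from NT. SLC7A11, the cystine transporter, differed from NT by 0.58, under 2-fold, but C3/C2 lay −1.58 from NT, so that SN exceeded C3/C2 by 2.17 (95% interval 1.97 to 2.36). The feedback genes PPP1R15A (the phosphatase subunit GADD34), SESN2 and DDIT4 (inhibitors of mTORC1) rose by 2.03, 3.03 and 2.69. CEBPB, a partner of ATF4, rose by 1.91 and VLDLR by 1.78, beside 1.65 and 0.93 with C3/C2. ATF4 itself, which is controlled mainly through translation, differed by 0.88 (SE 0.13) and TRIB3, its pseudokinase inhibitor, by 0.49, both under 2-fold. The exception in direction was ATF5, a paralogue of ATF4, which fell by 2.64 (SE 0.14), with C3/C2 at −1.94 and TRAIL at 0.67. Among 20 genes of the endoplasmic reticulum stress response, 5 rose and none fell: the sensor ERN1 (2.28), HERPUD1 (1.42), SEL1L (1.29), the chaperone HSPA5 (1.14) and DNAJB11 (1.03). Of these 5, 3 were also higher than with TRAIL on the shared slide, beside 81.2% of all genes higher than NT. With normexp, 3 genes of the list were called higher than NT. XBP1, whose RNA the ERN1 protein splices, stayed under 2-fold at −0.57. GDF15, a stress cytokine, rose by 1.86 (SE 0.19) and exceeded C3/C2, which lay 0.062 from NT, by 1.80. NUPR1, a stress-induced chromatin protein, was at −0.36 with SN and −2.25 with C3/C2, and SN exceeded C3/C2 by 1.89 (SE 0.57).

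Immediate early genes are switched on within minutes of MAP kinase activation, and the DUSP phosphatases and SPRY proteins that they include shut the kinases off again. At 6 h with SN, 14 of 30 tested genes of this list (32 listed) were higher and 1 was lower, with a median difference of 0.792. Of the 14, 12 were also higher than with TRAIL, as were 81.2% of all genes higher than NT. Against C3/C2, 10 of the 30 were higher with SN, where 1.28% of all genes were, and none was lower. FOS read 0.37, 0.33, 0.47 and 0.38 in NT and 2.69, 2.69, 3.19 and 3.18 with SN, 5.85-fold higher (adjusted p = 2.45e-14). EGR1, a zinc finger factor of the same wave, read 0.69, 0.50, 0.93 and 0.86 in NT and 1.67, 1.55, 3.33 and 3.17 with SN. Its SN arrays 1 and 2 lay below arrays 3 and 4, so that the rise of 1.69 had a larger SE (0.33) than that of FOS, and no SN array overlapped NT. EGR2 divided its SN arrays in the same way, at −3.03, −3.12, −1.44 and −1.43 beside −4.54, −5.11, −5.41 and −5.08 in NT. IER5 rose by 2.10, beside 2.16 with C3/C2. JUN and JUND, which pair with FOS, rose by 1.43 and 1.74, and FOSB by 2.98. NR4A3, an orphan nuclear receptor, was below background on every NT array and at least 12.2-fold higher with SN, and SN lay 0.65 from C3/C2 (95% interval 0.34 to 0.96). The phosphatases DUSP5, DUSP1, DUSP8 and DUSP10 rose by 3.24, 2.72, 2.05 and 3.05, DUSP10 from below background in NT (at least 6.42-fold). DUSP6, a phosphatase of ERK, differed by −0.31 and SPRY2 fell by 1.37, while SPRY4 and FOSL1 stayed under 2-fold with SN (0.56 and 0.52) but exceeded C3/C2 by 1.35 and 1.37.

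Ligands of the EGF receptor rose beside these genes. HBEGF, whose membrane form is shed to act on neighbours, read −1.78, −1.62, −1.13 and −1.06 in NT and 1.32, 1.40, 1.65 and 1.62 with SN, a rise of 2.89 (SE 0.19). AREG, amphiregulin, read 2.90, 2.77, 3.02 and 2.95 in NT and 5.41, 5.53, 5.30 and 5.31 with SN. EREG, epiregulin, read 0.057, −0.11, 0.095 and −0.085 in NT and 1.38, 1.46, 1.77 and 1.68 with SN. No array of the groups overlapped for these 3 ligands, and each exceeded C3/C2, by 1.43 (SE 0.19), 1.53 (SE 0.097) and 1.71 (SE 0.11). EREG lay at −0.13 from NT with C3/C2. TGFA, another ligand, differed from NT by 0.015 (SE 0.068), with overlapping arrays.

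PPAR receptors are activated by fatty acids and induce genes of lipid storage and oxidation. Of 26 tested PPAR target genes and receptors (29 listed), 8 rose and 1 fell with SN, with a median difference of 0.505. The 8 were also higher than with TRAIL, as were 81.2% of all genes higher than NT. ANGPTL4, an inhibitor of lipoprotein lipase, read −6.43, −6.14, −6.82 and −6.59 in NT and 2.02, 2.10, 1.66 and 1.65 with SN. CREB3L3, a membrane-bound transcription factor of liver and intestine, read −6.22, −6.91, −6.76 and −6.32 in NT and 0.56, 0.61, 0.86 and 0.90 with SN. Both were below background on every NT array and in a narrow range on the SN arrays, and their differences from C3/C2 were under 2-fold, with 95% intervals of 0.29 to 1.08 and −0.31 to 0.77. The lipid droplet proteins PLIN5, PLIN4 and PLIN2 rose by 4.85, 2.47 and 1.34. PLIN4 exceeded C3/C2 by 1.28 (SE 0.12), while PLIN5 differed from it by −0.18 (95% interval −0.51 to 0.15). CPT1A, which brings fatty acids into mitochondria, rose by 1.16, and the receptors PPARD and PPARA by 2.39 and 1.87, a second PPARA probe by 0.63, under 2-fold. PPARG stayed under 2-fold (0.53), as did PDK4 (0.56), and VNN1, a pantetheinase, fell by 1.58. CD36, the fatty acid transporter, was above background on 2 SN arrays and on no NT array, differed from NT by 0.59 (adjusted p = 0.0648) and lay −1.97 from C3/C2 (SE 0.28).

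Among 18 genes known to rise on deacetylase inhibition, 6 were higher with SN and 1 was lower, with a median difference of 0.509 (0.536 with C3/C2 and 0.179 with TRAIL). CDKN1A, the p21 inhibitor of cyclin-dependent kinases, read −4.09, −4.31, −3.83 and −4.22 in NT, −1.47, −1.48, −1.36 and −1.42 with C3/C2 and 0.33, 0.27, 0.017 and 0.033 with SN. The 3 ranges did not overlap, and SN exceeded C3/C2 by 1.60 (SE 0.12, adjusted p = 2.46e-09). GADD45B, a stress sensor that binds MAP3K4, rose 17.9-fold, TUBB3, a neuronal tubulin, 9.51-fold, CDKN1C (p57) 5.68-fold, and the linker histone gene H1F0 4.19-fold. The difference of H1F0 between SN and C3/C2 was 0.0072 (95% interval −0.21 to 0.22), and that of GADD45B 0.11 (−0.094 to 0.31). CLU, clusterin, was at 1.06 and was under 2-fold without NT replicate 3 (0.94), NT replicate 4 (0.996) or SN replicate 2 (0.98). TXNIP, the thioredoxin and glucose transport inhibitor, read 2.47, 2.41, 1.86 and 1.72 in NT and 0.22, 0.27, 0.27 and 0.017 with SN, a difference of −1.92, while C3/C2 lay 0.40 from NT, a difference of −2.32 (SE 0.22) between the treatments. The histone genes HIST1H1C, HIST2H2BE, HIST1H2BD and HIST1H2BK were at −0.091, −0.13, −0.51 and −0.77, under 2-fold. Among the 10 deacetylases tested, HDAC10 rose by 1.57, HDAC7 lay at −1.01 and, without NT replicate 1 (−0.9985), NT replicate 2 (−0.994) or SN replicate 2 (−0.995), under 2-fold, and HDAC1, HDAC2 and HDAC3 were at 0.25, −0.21 and 0.84. A second HDAC7 probe was at −0.51 and was not called.

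**Figure D3:**
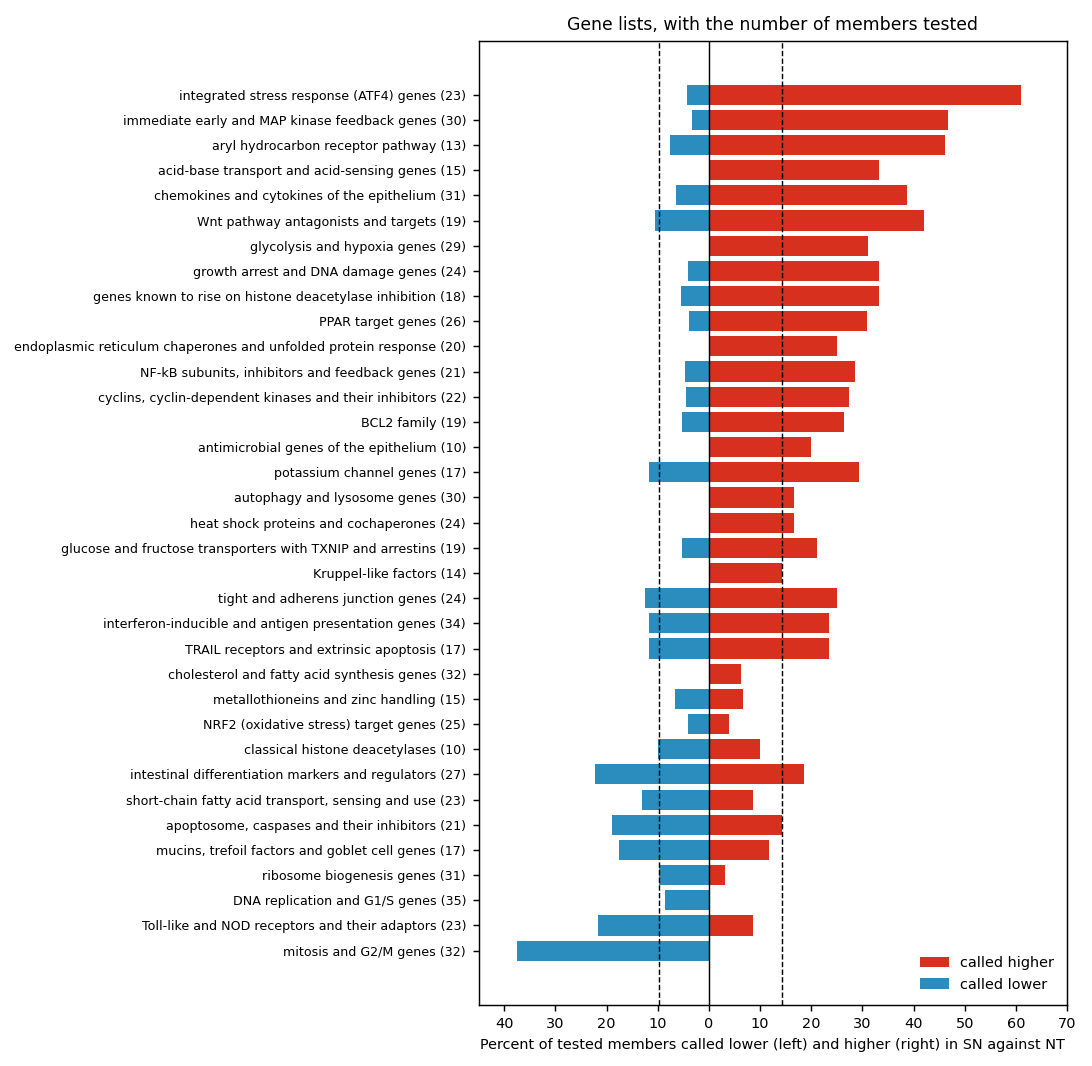
Bars give the percent of tested members called higher (right, red) and lower (left, blue) with SN against NT for each gene list, with the number tested in brackets, and dashed lines mark the percent over all genes (14.2 and 9.75). The ATF4 list stands at 14 of 23 higher and the list of mitosis and G2/M genes at 0 of 32 higher and 12 of 32 lower.

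Cell cycle genes moved in both directions. Of 22 cyclins, kinases and inhibitors tested, 6 rose and 1 fell: the inhibitors CDKN1A, CDKN1C, CDKN2B (2.57) and CDKN2D (1.87) and the G1 cyclins CCNE1 (1.25) and CCND3 (1.23) rose, and the activator E2F3 fell by 1.14, its second probe at −0.80 being under 2-fold. CCND1 differed by 0.12, with overlapping arrays. Of 32 genes of mitosis and G2/M, none rose and 12 fell, with a median difference of −0.686, beside −0.42 with C3/C2 and 0.0573 with TRAIL. Against TRAIL on the same slide, 11 of the 12 were lower too, as were 63.3% of all genes lower than NT. KIF20A, the kinesin of cytokinesis, read 1.93, 1.89, 1.41 and 1.33 in NT and −0.37, −0.33, −0.67 and −0.77 with SN, a difference of −2.18 (SE 0.15). AURKA, the centrosome kinase, read 4.02, 3.95, 3.54 and 3.54 in NT and 1.94, 1.95, 1.79 and 1.65 with SN, and CCNB2, a cyclin of mitotic entry, 5.61, 5.54, 5.26 and 5.20 and 3.73, 3.67, 3.69 and 3.61. In both, NT arrays 1 and 2 lay above 3 and 4, by less than the distance to the SN arrays. CENPA, the centromeric histone, HMMR, a spindle protein, and CCNA2, the S and G2 cyclin, were at −1.91, −1.78 and −1.46, the kinases PLK1 and TTK at −1.39 and −1.17, and the phosphatase CDC25C at −1.25, whereas its paralogue CDC25B was at 0.74. CCNB1 was at −1.09 and was under 2-fold without NT replicate 1 (−0.997). KIF20A alone of the 32 was called lower than with C3/C2, at −1.16 (SE 0.15), while MKI67, the proliferation antigen, was at −0.72 on its brightest probe and at −1.49, called lower, and −0.93 on its others. TOP2A (−0.37) and CDK1 (−0.40) stayed under 2-fold. Of 35 replication and G1/S genes, 3 fell (8.57%, against 9.75% of all genes) and none rose: GINS3, of the replicative helicase, at −2.89 (SE 0.078), CDC7, the kinase that fires origins, at −1.81 and POLE2, of DNA polymerase epsilon, at −1.36. MCM6, RRM2, TYMS and PCNA, at −0.94, −0.95, −0.91 and −0.67, were among the 32 not called. The count of 3 is sensitive to scaling and was 8 by array medians. Of 24 growth arrest and DNA damage genes, 8 rose and 1 fell, and GADD45A (1.89), POLH (1.67) and PLK3 (1.55) were among the 8.

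**Figure D4:**
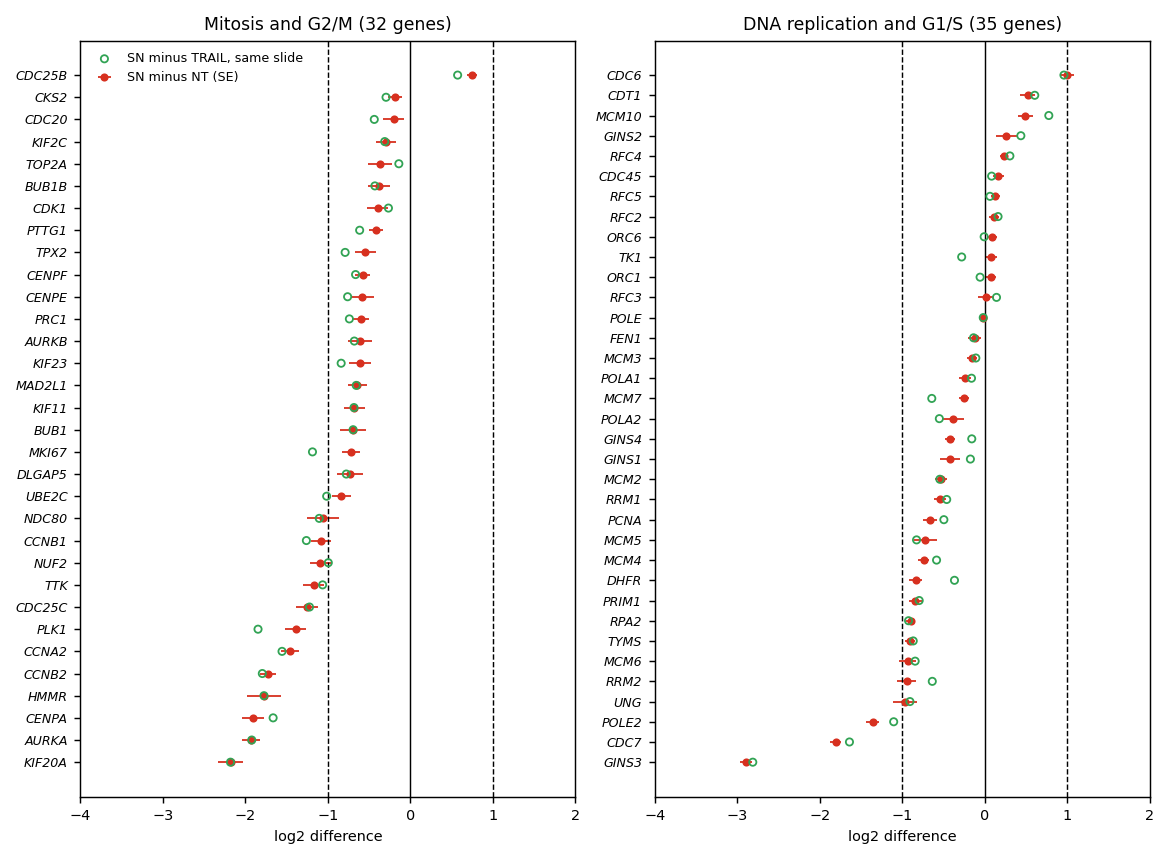
Log2 differences of SN from NT (red points, with SE bars) and of SN from TRAIL on the same slide (open green circles) are plotted for each tested gene of mitosis and G2/M (left) and of replication and G1/S (right), with dashed lines at 2-fold. Most mitotic genes lie left of 0 in both measures, down to KIF20A at −2.18, and among replication genes GINS3, CDC7 and POLE2 stand left of the others.

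The BCL2 family decides whether mitochondria release cytochrome c, and its BH3-only members start that step. Of 19 tested genes, 5 rose and 1 fell. BMF read −1.64, −1.61, −1.18 and −1.17 in NT and 2.52, 2.52, 2.36 and 2.29 with SN, 14.1-fold higher, BBC3 (PUMA) rose by 2.38 (SE 0.078), and BIK and BCL2L11 (BIM) rose by 2.32 and 1.29, its other probes being at 1.3, called higher, and 0.22. The pore-forming BAK1 rose by 1.62 and BAX stayed at −0.44. None of these genes differed from C3/C2 by 2-fold, the nearest being BBC3, at 0.69 (95% interval 0.52 to 0.85). BCL2L10, an anti-death member, fell by 2.40 (SE 0.13), while BCL2L1 and MCL1 were at −0.65 and 0.50. Of the 17 genes of TRAIL receptors and their pathway, 4 were higher (TNFRSF10C, TNFRSF10B, TNFRSF25 and TNFRSF21) and 2 lower (CASP8 and CASP10), the lower count being 5 by array medians, 4 with normexp and 0 by spike-in controls. CASP8 and CASP10 sat at the threshold: CASP8 was at −0.98 without NT replicate 3 or SN replicate 3, CASP10 at −0.98 without NT replicate 4, and the other CASP10 probes were at 0.59 and −0.14. TNFRSF10B, the death receptor DR5, read 2.20, 2.32, 2.17 and 2.26 in NT and 4.18, 4.30, 4.16 and 4.16 with SN, 3.88-fold higher, with C3/C2 at 1.01 from NT and a difference of 0.95 between them (SE 0.10). TNFRSF10A (DR4) stayed at −0.50, and the decoy receptor TNFRSF10C rose from below background to at least 2.44-fold, while the decoy TNFRSF10D stayed at 0.78. The gene of TRAIL itself, TNFSF10, lay at −0.96 (SE 0.15) from NT, with a second probe at −1.23 that was called lower, and −1.40 from C3/C2 (SE 0.15). CFLAR, the caspase-8 inhibitor FLIP, was at −0.07 on its brightest probe, and its other probes were at −0.96, −1.35 and −1.45, of which 2 were called lower. XIAP, the caspase inhibitor, was at −0.82 on its brightest probe and −1.08 on its second.

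NF-kB dimers switch on cytokines, and inhibitors such as TNFAIP3 and NFKBIE, which they also induce, end the response. With SN, 6 of 21 tested genes of this list rose and 1 fell (median 0.488, against 0.419 with C3/C2 and 1.04 with TRAIL). None of the 6 was called higher than with TRAIL, itself an activator of NF-kB. They were BIRC3 (2.81), TNFAIP3 (2.01), NFKBIE (1.80), IRF1 (1.76), NFKB2 (1.66) and BCL3 (1.07). NFKB1, the p105 precursor, read 1.49, 1.52, 1.60 and 1.52 in NT and 0.015, −0.062, 0.028 and −0.072 with SN, a difference of −1.55, where C3/C2 lay −1.5 and TRAIL 0.89 from NT. NFKBIA, the inhibitor of first response, was at −0.31 with SN but 1.35 with C3/C2 and 1.73 with TRAIL, and SN lay −1.66 from C3/C2 (SE 0.13). ICAM1, the adhesion molecule, was at 0.39 with SN and 2.41 with TRAIL.

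Of 31 tested cytokines and growth factors, 12 were higher with SN and 2 lower. IL1B, interleukin 1 beta, read −7.08, −7.38, −7.35 and −7.10 in NT, not above background, and −2.25, −2.32, −2.33 and −2.42 with SN, at least 10.5-fold higher. IL1A read −7.81, −8.02, −7.79 and −7.78, not above background, and −4.07, −4.11, −4.08 and −4.10 with SN (at least 3.09-fold), and exceeded C3/C2 by 1.92 (SE 0.096). IL1A was below background on every TRAIL array, and the SN arrays of IL1B lay above every TRAIL array, by a mean of 3.16. TNF, the pro-inflammatory cytokine, behaved in the other way, at −4.69 to −3.56 with SN against −1.78 to −1.27 with TRAIL and −7.86 to −6.59, below background, in NT. CCL20, which draws dendritic cells, rose by 2.26 with SN, beside 3.40 with C3/C2 and 5.67 with TRAIL, IL17C, an epithelial cytokine, by 2.15, IL32 by 1.96 (a second probe at 0.84) and CSF2 from below background (at least 2.24-fold). The neutrophil chemokines CXCL1, CXCL2 and CXCL3 were not called, at −0.99, 0.26 and 0.032, while TRAIL lay 3.85, 3.04 and 2.75 from NT. IL8 was below background on all NT and SN arrays and above it on the 4 TRAIL arrays. CSF3, the granulocyte growth factor, was below background on all NT and SN arrays and above it on the 4 C3/C2 arrays. CXCL5, of the same family as CXCL1, fell by 2.21, and TRAIL lay −2.22 from NT. LTB, lymphotoxin beta, was above background on the 4 NT arrays and on no SN array, at least 1.71-fold lower. With normexp background correction, 5 of the 12 rises remained called, and 5 were also called higher than with TRAIL.

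**Figure D5:**
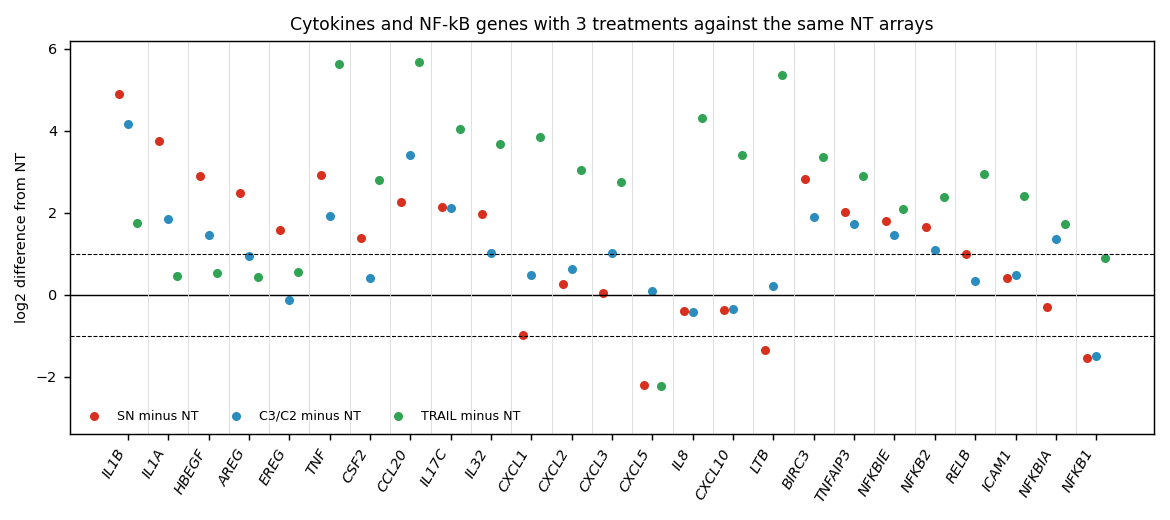
Points give the log2 difference from NT with SN (red), C3/C2 (blue) and TRAIL (green), which share the same 4 NT arrays, for cytokines and NF-kB genes, with dashed lines at 2-fold. IL1B, IL1A, HBEGF, AREG and EREG are highest with SN, while TNF, CCL20, CXCL1, IL8, LTB and RELB are highest with TRAIL.

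Of 23 tested Toll-like and NOD receptors and adaptors, 5 fell and 2 rose (CD14 and IRAK2). TLR4, the lipopolysaccharide receptor, fell by 1.54 (SE 0.16), and NLRP3, the inflammasome sensor, was at −2.37 and above background on 1 SN array, with C3/C2 at −1.85 and −2.23. CASP5, NLRX1 and the kinase IRAK4 were at −1.31, −1.07 and −1.0. CD14, the partner of TLR4, rose by 1.16. Of 10 antimicrobial genes tested, 2 rose and none fell. DEFB1, the constitutive defensin, rose by 1.90 and PIGR, which carries IgA across the epithelium, by 1.84, the latter beside 1.80 with C3/C2 and 1.28 with TRAIL. Of 34 genes of interferon response and antigen presentation, 8 rose and 4 fell, and 2 of the 8 were called against TRAIL as well: OASL (2.05) and OAS1 (1.41). IFIT3 fell by 1.61 (adjusted p = 0.000741), with C3/C2 at −1.97 from NT. The lower count was 1 in place of 4 without NT replicate 1, NT replicate 2, SN replicate 3 or SN replicate 4. IFI44, IFI27 and IFI44L were at −1.20, −1.51 and −1.92 with limma's adjusted p of 0.04, 0.0493 and 0.0404. In the same limma test, IFI44L had an adjusted p of 0.101 without NT replicate 1, 0.122 without NT replicate 2, 0.105 without SN replicate 3 and 0.138 without SN replicate 4. MICB, a ligand of the NKG2D receptor of natural killer cells, rose by 5.21 (SE 0.22) on the probe at chr6:31478833-31478892, while its second probe, at chr6:31475185-31475244, was at 0.34 and was not called.

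The epithelial identity of the cells was measured by its regulators and markers. Of 27 tested genes of intestinal differentiation (43 listed), 6 fell and 5 rose. HNF4G, a transcription factor of the gut, was at −1.18, while its relative HNF4A differed by −0.038 with overlapping arrays. The stem cell genes LGR5 and ASCL2 were at −1.82 and −1.59, and SOX9, at −1.02, was under 2-fold without NT replicate 4 (−0.96), SN replicate 1 (−0.98) or SN replicate 2 (−0.97). CDX1, a homeobox factor, was at −0.063 on its brightest probe and 1.42 on a second. CDX2, its partner in the intestine, rose by 1.26, as did the crypt receptors EPHB2 (2.61) and EPHB3 (1.12) and the brush border enzymes ANPEP (1.51) and CA4 (1.51, from below background in NT). KRT20 and VIL1, markers of mature colonocytes, stayed at 0.46 and −0.15. In the Wnt pathway, 8 of 19 tested genes rose and 2 fell. DACT3 read −2.28, −5.19, −5.55 and −5.24 in NT, the first array standing far above the others, and 3.1, 3.09, 3.06 and 3.14 with SN, and its difference was 8.42 without that array. NKD2, which blocks Dishevelled, read −0.64, −0.66, −0.99 and −0.85 in NT and 3.82, 3.75, 3.57 and 3.63 with SN and exceeded C3/C2 by 1.38 (SE 0.11). DACT1, a paralogue of DACT3, went from below background in NT to above it on 2 SN arrays (2.81). WNT11 rose by 1.35 beside 0.097 with C3/C2, and WNT7B by 1.72. The antagonist DKK1 was at −1.15 and the target SP5 at −1.09, and both fell, while AXIN2, the most used readout of the pathway, was at −0.16.

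Of 24 tested junction genes, 6 rose and 3 fell, though 1 of the 24 was called higher by array medians or with normexp. E-cadherin (CDH1) read 4.02, 4.10, 4.14 and 4.08 in NT and 5.05, 5.18, 5.21 and 5.16 with SN, 2.1-fold higher, and SNAI1, one of its repressors, ranged from −2.09 to −1.98 in NT and from 2.50 to 2.87 with SN. CLDN23 rose by 1.55 and OCLN, occludin, by 1.12, while CLDN2, the claudin of leaky epithelia, fell by 1.79 (SE 0.14), −1.06 from C3/C2 (SE 0.14). Of 17 tested mucin and goblet cell genes, 2 were higher and 3 lower, among them MUC20 (−1.11) and GCNT3 (−1.07), a mucin-modifying glycosyltransferase. The membrane mucins MUC17 and MUC12 rose by 1.89 and 2.25, the latter above background on 1 NT array, and the secreted mucin MUC2 was at −0.053. SPDEF, a goblet cell factor, was at −1.03 and was under 2-fold without NT replicate 4 (−0.98).

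Among 23 tested genes of short-chain fatty acid handling, 2 were higher (8.7%, beside 14.2% of all genes) and 3 lower (13%, beside 9.75%). SLC16A3, the lactate and proton exporter MCT4, read 5.38, 5.36, 4.88 and 4.86 in NT and 7.02, 7.20, 6.54 and 6.59 with SN, and ACSS2, which makes acetyl-CoA from acetate, 0.54, 0.53, 0.85 and 0.81 in NT and 2.00, 2.01, 2.11 and 2.11 with SN. Their differences from C3/C2 were 0.25 (95% interval −0.16 to 0.67) and 0.053 (−0.14 to 0.24). FFAR2, the acetate and propionate receptor, fell by 1.57, and the lactate receptor HCAR1 was at −1.41, the lactate transporter SLC5A12 was below background with SN and above it on the 4 NT arrays, and the propionyl-CoA carboxylase genes PCCA and PCCB were at 0.70 and −0.53. Of 19 tested glucose and fructose transporters and regulators, 4 rose and 1 fell. SLC2A4 (GLUT4), below background in NT (−8.05 to −7.80), read −1.77 to −1.40 with SN, at least 17.4-fold higher and −1.18 from C3/C2 (SE 0.11). MLXIPL, the glucose-sensing factor ChREBP, rose by 4.51 and the transporter SLC2A1 (GLUT1) by 1.22 (a second probe at 0.98), while TXNIP, a target of ChREBP, was the gene that fell. Of 29 genes of glycolysis and hypoxia, 9 rose and none fell, among them ENO2 (2.22), PFKFB4 (2.13), VEGFA (2.03, a second probe 0.63) and HK2 (1.34), whereas LDHA and GAPDH were at −0.061 and 0.014, with overlapping arrays.

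Of 15 acid-base transport and sensing genes tested, 5 rose and none fell, the higher count being 3 by array medians and 2 with normexp. CA12, a carbonic anhydrase, rose by 1.07, or by 0.94 by array medians and 0.88 with normexp, both under 2-fold. SLC26A11, an anion exchanger, rose by 2.00, and the proton-sensing receptor GPR4 by 2.37, although NT replicate 4, at −3.70, overlapped the SN range of −4.79 to −3.57 and the difference was 3.37 without that array and 0.48 with normexp. Of 17 tested genes on the potassium channel list, 5 rose and 2 fell. KCNH2 (2.05), KCNN2 (1.99) and KCNN4 (1.84) were among the rises. The falls were KCNE3 and KCTD12 (−1.17), which is not itself a channel gene, and KCNE3 alone was also called lower than with TRAIL. KCNQ1, the channel that KCNE3 opens, differed by −0.081 (SE 0.16).

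Of 25 NRF2 target genes, HMOX1, which breaks down haem, rose by 2.30 and KEAP1, the inhibitor of NRF2, fell by 2.56 (SE 0.12), with a list median of −0.201. OSGIN1, another target, was at −0.80 and lay 1.26 from C3/C2 (SE 0.18). Of 15 metallothionein and zinc genes, SLC30A1, a zinc exporter, was at 1.04, a call lost without SN replicate 3 or 4, by array medians and with normexp, and MT1M at −2.27, where TRAIL lay −1.89 from NT. Of 24 heat shock genes 4 rose (16.7%, near the 14.2% of all genes), led by the cochaperone DNAJB5 (2.29) and HSPA2 (1.71). The inducible HSPA1A stayed at 0.50. Of 30 autophagy and lysosome genes 5 rose, also 16.7% and near the share of all genes. Among them were MAP1LC3A (3.20) and MAP1LC3B (1.64), which coat the autophagosome, the kinase ULK1 (1.48) and the sialidase NEU1 (2.27). Of 31 ribosome biogenesis genes 3 fell (9.68%, beside 9.75% of all genes), PPAN (−1.52), RRS1 (−1.23) and UTP20 (−1.21), and RRP9 was at 1.02. Of 32 genes of cholesterol and fatty acid synthesis 2 were higher (6.25%), SCAP (1.13) and INSIG1 (1.10). Of 14 Kruppel-like factors 2 were higher (14.3%, beside 14.2% of all genes), KLF9 (3.43) and KLF4 (2.35), a pair of differentiation factors of the gut and other tissues. Of 21 caspases and related genes 3 were higher and 4 lower. BIRC3 led the rises, and XAF1, an antagonist of XIAP, was called lower, above background on 3 NT arrays and on no SN or C3/C2 array, a call lost with normexp (−0.55). Several others sat at the threshold. CASP9 (1.03) was at 0.99 without SN replicate 1, and DFFA (1.04), CASP6 (−1.02) and DFFB (−1.04, a second probe at −0.26) were at 0.97, −0.99 and −0.98 without NT replicate 3.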

How the data were processed

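RNA of 24 HT29 cultures was hybridised, 1 per array, to 1-colour Agilent arrays. Per the file headers, the values used are the processed Cy3 intensities that Agilent Feature Extraction gave, deposited as 1 scanner file per array. The deposited value table holds the same intensity divided by the array median (largest relative deviation 8.52e-06) and served as an alternative scaling. The study's own calls, not used here, came from Rosetta Resolver. The deposited value table also holds 24 columns of per-sample flags, which were not used as measurements.

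Control spots and 190 to 315 outlier spots per array were left out, spots of a probe were averaged, and log2 intensities were taken relative to the 75th percentile of each array. A probe was kept (27957 of 50599) where Feature Extraction put it well above background on the 4 arrays of any group, and the brightest probe stood for each of 20703 genes. limma 3.58.1 (R 4.3.3) was fitted to 6 group means over 24 arrays with 18 residual degrees of freedom. On simulated data with 200 changed genes among 20686, 193 were called in the right direction and 1 unchanged gene was called. The simulated spread was independent between arrays, without slide offsets or shared experiments, so these counts do not cover such effects. The changed genes were all set past 2-fold and the others to no difference, so differences near the threshold are not covered either. Same-numbered NT and SN arrays deviated together (r = 0.175, 0.16, 0.231 and 0.133 over genes), which the replicate block takes up. Alternatives were another scaling (array median, quantile, spike-in), normexp, other filters and thresholds, the mean of probes, the replicate block, the slide as a random block and each array left out.

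Members and lists were chosen with earlier results of these data known. Named genes are the 10 largest rises and 10 largest falls measured in both groups, the 5 largest lower bounds in each direction, the largest rise and fall of each list, its central members, and genes the study tabulated or put in its apoptosis panel where a list holds them. Some genes that this rule names, 1 of the 10 largest rises among them, are not reported here, and counts of lists under the same-slide comparison were added after the data were seen. Promoters are RefSeq's (GRCh38.p14), and probe positions are the array's (hg19).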

Additional observations from a re-analysis of the deposited data

Results flagged for a closer look

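Across 522 sets of 4 arrays checked (1 gene in 1 group each), 18 held an array that stood apart from the other 3 by Dixon's criterion, which chance meets in about 1 of 20 sets. Of the 18, 4 were NT replicate 1, the array on a slide apart from the other NT arrays.

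In NT, replicate 1 read −2.28 for DACT3 (the others −5.55 to −5.19), 1.18 for DNAJA1P5 (2.16 to 2.22), −5.53 for IL17C (−4.75 to −4.6) and 0.771 for MT1M (1.34 to 1.44). Replicate 2 read −7.01 for DACT1 (−7.86 to −7.73) and −8.02 for IL1A (−7.81 to −7.78), and replicate 3 read −6.85 for DUSP10 (−5.84 to −5.77), all 3 genes being below background in NT.

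With SN, replicate 1 read −6.15 for CD36 (−5.5 to −5.38) and 4.16 for SLC7A11 (4.36 to 4.37). Replicate 2 read −1.6 for B3GALT4 (−1.95 to −1.92), −6.49 for SETP20 (−5.66 to −5.52) and 4.3 for TNFRSF10B (4.16 to 4.18). Replicate 3 read 1.68 for BIRC3 (1.61 to 1.62), 1.57 for CASP6 (1.49 to 1.5), −3.12 for HNF4A (−3.5 to −3.47), 3.94 for KLF6 (3.77 to 3.78), −1.61 for POLE2 (−1.41 to −1.39) and 2.07 for SP5 (1.77 to 1.81). Leaving out any of these arrays kept the calls of these genes except that of CASP6, which was lost without NT replicate 3.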

How the results depend on the processing

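Counts are given as higher and lower with SN. Array medians gave 2536 and 2515 against NT, 495 genes higher than with C3/C2 and 2582 lower than with TRAIL, and spike-in scaling 636 and 554 against C3/C2 and 4134 and 856 against TRAIL. Normexp gave 1390 and 1552 against NT, 80 and 401 against C3/C2 and 613 lower than TRAIL. Without a filter 434 genes were higher than with C3/C2, and with every array of both groups above background 560 were lower than with C3/C2 and 1760 higher than with TRAIL. By adjusted p only, the counts were 7274 and 7080 against NT, 4496 and 5318 against C3/C2, and 6729 and 7014 against TRAIL. At 4-fold they were 1009 and 410, 34 and 176, and 957 and 284, and by limma's treat test against 2-fold 1931 and 1015, 60 and 225, and 1717 and 812. Of the genes lower than NT, 1278 were also lower than with TRAIL. Leaving out each array gave 2893 to 3004 and 1972 to 2070 against NT, 250 to 291 and 864 to 1017 against C3/C2, and 2667 to 2763 and 1634 to 1715 against TRAIL. With the replicate block the counts were 2950 and 2021, 270 and 919, and 2712 and 1655, and no call of the 261 named genes changed. With the slide as a random block (correlation 0.0256) they were 2942 and 2015 against NT. Since SN and NT shared no slide, this block cannot take up a difference between their slides and gives no measure of it. No named gene that was called turned direction, while the balance of higher and lower counts shifted with the scaling. Of the 195 named genes called, 150 were lost under no alternative that tested them, 4-fold and treat aside. Without 1 array, 15 were lost, each near the threshold. With every array of both groups above background, 228 of the 261 named genes were tested, and with all arrays of either group 253. Named genes left untested in this way were not counted as lost. For other changes the cause was not tested. Signal over background limited what could be read for dim genes, since 451 of the genes higher with SN had no NT array above background and 260 of those lower no SN array.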
